A study of Mus musculus with 5 samples.

Results

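The genes described here encode the vacuolar proton pump (V-ATPase), its accessory proteins, and the membrane proteins, enzymes, lipid carriers, calcium channel and master regulator of the lysosome. They were taken by name from a fixed list of 38 gene symbols, and a symbol counted as measured where the array annotation gave it at least 1 probe set of its own. This held for 36 of the 38, among 18194 genes measured in all. Atp6v0c, the proton-carrying ring subunit, and Cd63, a tetraspanin of lysosomal membranes, had no probe set annotated to them alone and have no value here.

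NIH/3T3, a mouse fibroblast line, had been stably transfected with the pBSwitch vector and with pSLHGC-MYC-AUF1 p42, from which mifepristone induces a myc-tagged form of AUF1 p42. AUF1, encoded by Hnrnpd, is an RNA-binding protein known for binding AU-rich elements in mRNAs. Ribonucleoprotein immunoprecipitates (RNP-IPs) were collected on anti-c-myc agarose beads, 2 from cells labelled as induced with 1 nM mifepristone for 24 h and 2 from cells labelled as not induced. The fifth array held total RNA of the transfected cells, and the sources used here do not say whether these had been induced. All 5 samples therefore came from cells that carried both vectors, and the beads without induced protein give the background of the precipitation.

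The V-ATPase moves protons into lysosomes and other acidic organelles. Its V1 domain lies in the cytosol and hydrolyses ATP, and its V0 domain lies in the membrane and carries the protons. The acid that it makes lets the hydrolases of the lysosome work, and the transcription factor TFEB is known to activate many genes of pump and lysosome together through a short palindromic promoter element.

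A promoter window of 250 bases before to 50 bases after the gene start (RefSeq, mouse build GRCm38.p6) was at hand for 31 of the 38 genes. The letters CACGTG stood in 12 of these 31 windows (38.7%), against 8.09% of 27025 genes with a window. The longer string TCACGTGA, which contains CACGTG, stood in 7 of 31 (22.6%), against 1.12% of all genes. Each string reads the same on both strands. The 30 bases around TCACGTGA are shown, with that string in capitals, for a catalytic pump subunit, a membrane pump subunit, a peptidase and a glycosidase, 5′ to 3′ on the strand of the gene.
Atp6v1a, chr16:44139373-44139402, minus strand: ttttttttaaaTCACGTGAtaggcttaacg
Atp6v0d1, chr8:105566050-105566079, minus strand: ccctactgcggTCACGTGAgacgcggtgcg
Ctsd, chr7:142387908-142387937, minus strand: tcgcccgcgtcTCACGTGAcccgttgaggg
Gla, chrX:134601215-134601244, minus strand: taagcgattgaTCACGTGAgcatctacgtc

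The first base of the string lay 132 bases before the gene start in Atp6v1a, 4 before it in Atp6v0d1, 99 before it in Ctsd and 228 before it in Gla. The other 3 windows with the string belonged to Atp6v0e, Ctsa and Mcoln1. Promoter letters describe the gene, not the mRNA that the beads collected, and no value on these arrays measures TFEB at a promoter.

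All values are log2 signals, and a difference of log2 values is the log2 of a fold. A signal of log2 5 was taken as the edge of the background, since 69.7% to 70.8% of probe sets lay below it on each array. The authors' threshold was applied, so that a gene was called when its fold was at least 3 and its adjusted p, from limma over all 45101 probe sets, was under 0.5. This is a loose threshold under which a called gene can still be a chance result, and no probe set of the array passed an adjusted p under 0.05 in the comparison with the 3 controls, where 4836 had an unadjusted p under 0.05. The labels do not say whether the 2 RNP-IPs of a group came from separate cultures, and the single total RNA array was assumed to vary like the others.

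Hnrnpd was lower under the label induced than on the other arrays. Its signal was 6.72 and 7.39 under the label induced, 11.35 and 11.85 under the label uninduced and 10.60 in total RNA, a log2 fold of -4.21 (SE 0.46, adjusted p = 0.114) against the 3 controls. Vector mRNA read by these probe sets would give the opposite direction, but the sources used here do not place them on the vector sequence. Why Hnrnpd was lower was not tested. The paper reports myc-AUF1 on a western blot only after mifepristone. By RT-PCR it found most of the mRNAs chosen from the array enriched in RNP-IPs of induced cells. Neither measurement was analysed here. Labels are used as names for the RNP-IPs throughout, and every direction below is one between labels. RNP-IP 1 labelled uninduced and RNP-IP 2 labelled induced also stood apart from the other 3 arrays in reference genes. Gapdh was 9.70 and 9.71 in these, against 11.90, 12.11 and 12.32 elsewhere, and Rplp0, a ribosomal protein mRNA, was 11.50 and 11.88 against 13.21, 13.55 and 13.33. The 9 fibroblast markers were all present on every array (7.43 to 13.42), and 17 of 20 markers of blood, epithelial, endothelial and neural cells lay below log2 5 on all 5, the exceptions being Cd14, Epcam and Rbfox3. The summed log2 level of the 7 blood and macrophage markers was 28.4 and 27.9 under the label induced, 27.3 and 26.9 under the label uninduced and 26.6 in total RNA. Of these 7 markers, 6 lay below log2 5 on every array, Ptprc, Adgre1 and Csf1r among them. Cd14 was 6.21 and 5.81 under the label induced, 5.15 and 5.25 under the label uninduced and 5.23 in total RNA. Macrophages are rich in lysosomes, and a part of such cells in the values was not tested.

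Most of the 36 measured genes lay somewhat higher in the RNP-IPs labelled induced, and few passed the threshold. Their list was chosen with earlier results of these data known, and further genes of pump and lysosome are given below. Against the 3 controls (2 RNP-IPs labelled uninduced and total RNA), 24 of 36 were above 0 and the median log2 fold was 0.42, with a range from -0.68 to 2.96. The median of all genes was 0.00, and that of the 6401 genes with a mean signal over log2 6 was -0.15. Called higher was 1 of 36, Npc1, where 1.32% of all genes were called. Called lower were 0 of 36, where 2.36% of all genes were called, and 0 of the 36 were lower at an unadjusted p under 0.05, against 6 that were higher. These 6 are 16.7% of the genes, near the 13.4% of all genes at such a p in either direction, and over log2 6 the shares were 17.9% and 25.7%. Both RNP-IPs labelled induced lay above all 3 controls for 14 of 36, where this held for 12.0% of all genes, and below all 3 for 4 of 36, where it held for 13.4%. Of the 28 with a mean over log2 6, 11 lay above and 3 below, where 16.3% and 25.1% of all such genes did.

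The 14 were Atp6v1a, Atp6v1c1, Atp6v1d, Atp6v1e1, Atp6v1g1, Atp6v1h, Atp6v0b, Atp6v0d1, Lamp1, Ctsb, Gla, Neu1, Npc1 and Psap, so that 8 of them are pump subunits. The 4 below were Scarb2, Gaa, Glb1 and Npc2. Neu1 was below log2 5 on all 5 arrays and Glb1 on all 4 RNP-IPs, so the separation of these genes lies at the background. RNP-IP 1 labelled uninduced moved with the shift of the 36 genes. It was the lowest array for 15 of 36 genes, where this held for 15.9% of all genes. Over log2 6 it was the lowest for 12 of the 28, where this held for 21.9%. Of the 14 named above, 8 are among the 15. In each of the 14 the lowest array must be a control by their selection, so these shares do not apply to the 8. The median log2 difference of the 36 genes from total RNA was -0.39 in this array and -0.09 in RNP-IP 2 labelled uninduced, and without this array the median log2 fold against the remaining controls was 0.32. More of an mRNA on the beads, and more of it in the cells from which the extract was made, cannot be told apart without a total RNA array for each condition.

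**Figure D1:**
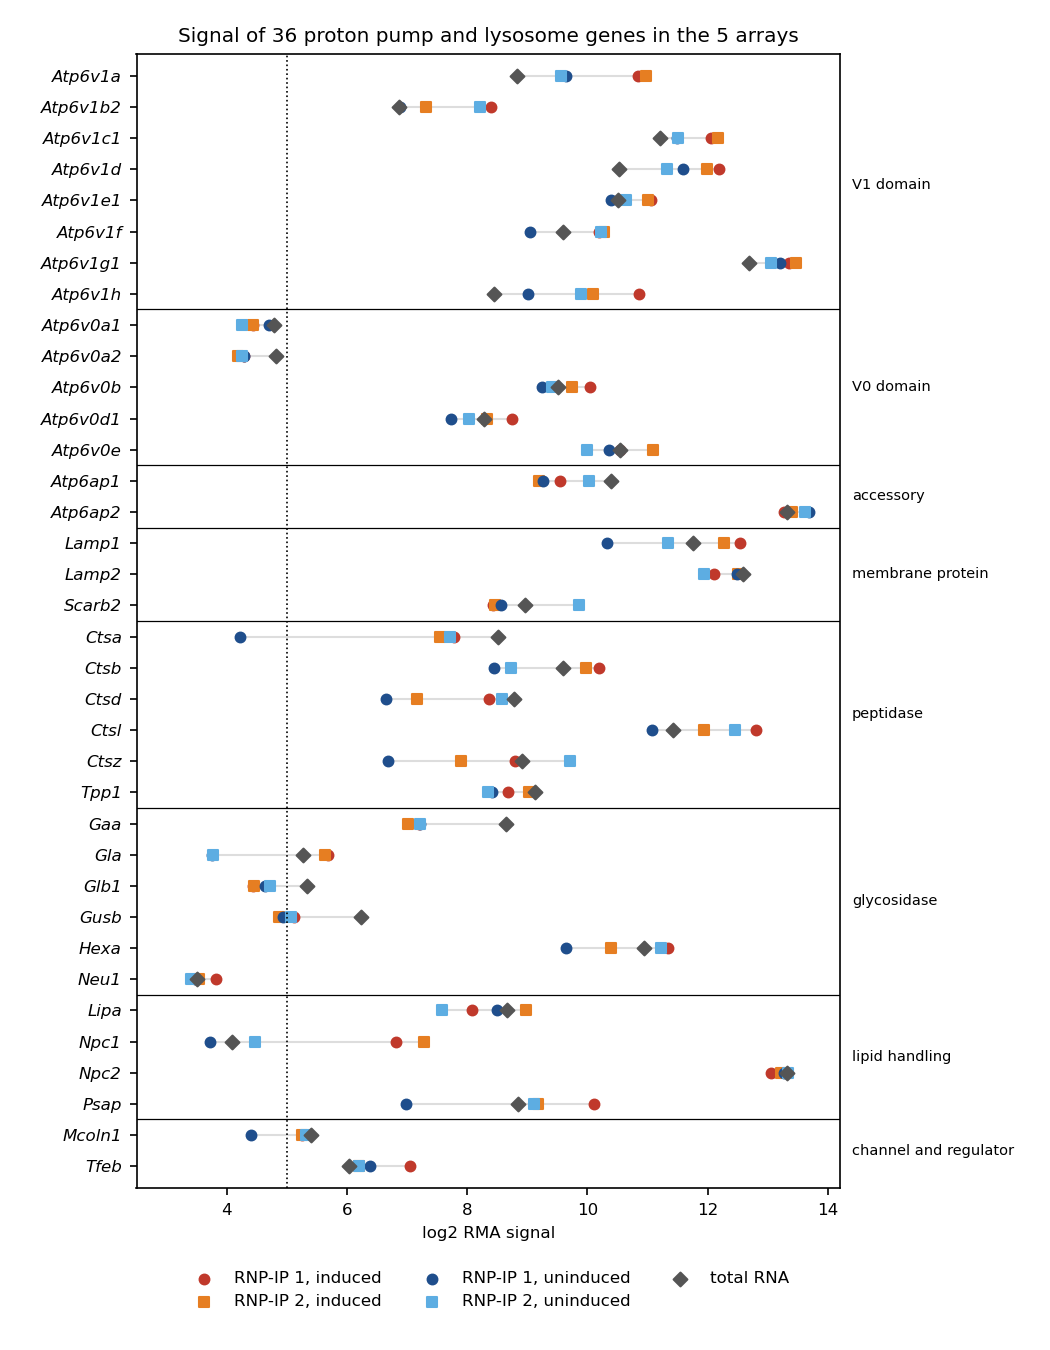
Log2 RMA signal (horizontal axis) of the 36 measured genes on the 5 arrays, 1 gene per line and grouped by role, with red and orange for the RNP-IPs labelled induced, dark and light blue for those labelled uninduced and a grey diamond for total RNA. The dotted line marks log2 5, the edge of the background, and a point can hide another where values are equal. Red and orange lie to the right of the other points in 6 of the 8 V1 lines, Npc1 has its 3 controls left of the dotted line, and the dark blue points of Ctsa and Psap lie far to the left.

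All 8 V1 subunits were above 0 against the 3 controls, with a median log2 fold of 0.66, and 0 of 8 passed the threshold on their probe set of highest mean signal. The 28 other genes had a median of 0.22, with 16 above 0.

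Atp6v1a, the catalytic subunit that hydrolyses ATP, had signals of 10.84 and 10.97 under the label induced, 9.65 and 9.55 under the label uninduced and 8.84 in total RNA. The 3 kinds of sample did not overlap, with the RNP-IPs labelled induced highest and total RNA lowest. Its log2 fold against the 3 controls was 1.56 (SE 0.29, adjusted p = 0.213), a 2.95-fold difference that lies just under the threshold of 3. It was called against total RNA (log2 fold 2.07, SE 0.10, adjusted p = 0.0939). A second probe set of Atp6v1a gave 9.69 and 10.23 under the label induced, 6.26 and 7.0 under the label uninduced and 6.25 in total RNA. There the log2 fold against the 3 controls was 3.46 (SE 0.33, adjusted p = 0.099), and it was called, so the call for this gene depends on the probe set.

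Atp6v1h, a regulatory subunit of V1, was 10.85 and 10.09 under the label induced, 9.01 and 9.89 under the label uninduced and 8.45 in total RNA. The groups again did not overlap, although RNP-IP 2 labelled induced and RNP-IP 2 labelled uninduced were close. Its log2 fold was 1.35 (SE 0.54, adjusted p = 0.522) against the 3 controls, and 2.02 (SE 0.60, adjusted p = 0.347) against total RNA, where it was called. Without RNP-IP 1 labelled induced the latter fell to 1.64 and was no longer called (adjusted p = 0.555), a comparison of 1 array with 1 in which the spread comes from the RNP-IPs labelled uninduced alone.

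Atp6v1c1, a subunit of the peripheral stalk, was 12.05 and 12.17 under the label induced, 11.48 and 11.50 under the label uninduced and 11.21 in total RNA. The fold was small and the arrays close to each other (log2 fold 0.72, SE 0.12, adjusted p = 0.179). A second probe set agreed in direction (0.90), and another with 9.58, 8.54, 8.95, 9.21 and 9.37 in the same order of arrays did not separate the groups (-0.11, adjusted p = 0.927).

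Atp6v1d, a subunit of the rotating central stalk, had log2 folds of 0.95, 0.86 and 1.42 against the 3 controls on its 3 probe sets, and against total RNA the last of these was called (2.03, adjusted p = 0.193). Atp6v1g1, another stalk subunit, differed more between its probe sets. The main one read 13.35 and 13.47 in the RNP-IPs labelled induced against 12.69 to 13.20 in the controls (log2 fold 0.42, adjusted p = 0.566). The second gave 1.57 (adjusted p = 0.153), and another of low signal, 6.66 and 7.08 against 5.61, 5.01 and 4.76, gave 1.74 and was called (adjusted p = 0.206). The 3 remaining subunits were not called on any comparison, with log2 folds of 0.52 for the stalk subunit Atp6v1e1 (adjusted p = 0.193), 0.53 for the nucleotide-binding Atp6v1b2 (adjusted p = 0.785) and 0.61 for Atp6v1f of the central stalk (adjusted p = 0.684). In Atp6v1b2 and Atp6v1f the groups overlapped.

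**Figure D2:**
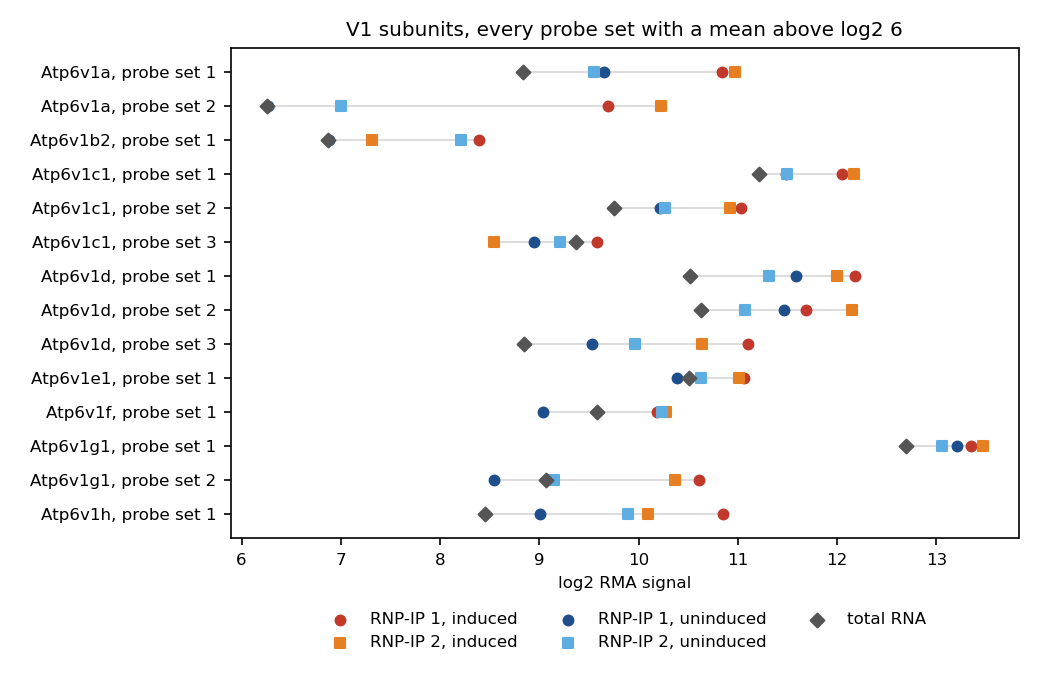
Log2 RMA signal (horizontal axis) of the 14 probe sets of V1 subunits whose mean lies over log2 6, 1 probe set per line, numbered within a gene by falling mean signal, with the symbols and colours standing for the 5 arrays. Red and orange lie to the right in most lines, most widely in the second probe set of Atp6v1a, and the third probe set of Atp6v1c1 is the exception with RNP-IP 2 labelled induced at its left end.

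In 5 genes every RNP-IP labelled induced exceeded every RNP-IP labelled uninduced, and these exceeded total RNA. All 5 were V1 subunits (Atp6v1a, Atp6v1c1, Atp6v1d, Atp6v1g1 and Atp6v1h), and the order held for 4.0% of all genes and for 6.3% of genes with a mean over log2 6. This order was read on the probe set of highest mean. On the second probe set of Atp6v1g1, RNP-IP 1 labelled uninduced (8.55) lay below total RNA (9.06). On the third probe set of Atp6v1c1, both RNP-IPs labelled uninduced (8.95 and 9.21) lay below total RNA (9.37). On group means the same order held for 7 of 8 V1 subunits and for 3 of the other 28 genes (Ctsl, Npc1 and Tfeb), where it held for 16.2% of all genes. In Npc1 the RNP-IPs labelled uninduced and total RNA were all below log2 5, so the order between these lies in the background. Set against total RNA 1 array at a time, the median log2 difference of the V1 subunits was 1.18 and 0.87 in RNP-IPs 1 and 2 labelled induced, and 0.39 and 0.68 in RNP-IPs 1 and 2 labelled uninduced. By the median, V1 mRNAs lay above total RNA on the beads under both labels. For the RNP-IPs labelled uninduced 0 of the 36 genes were called higher than total RNA and 0 lower by limma, where 1.26% and 1.36% of all genes were called, and at an unadjusted p under 0.05 there were 5 higher and 7 lower (33.3% of the 36, against 13.0% of all genes, and 28.6% against 20.8% over log2 6).

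Of the V0 subunits of the membrane domain, 3 of the 5 measured were above log2 5, and their log2 folds lay within the range of the V1 subunits. Atp6v0b, a ring subunit, had a log2 fold of 0.51 against the 3 controls (adjusted p = 0.309), Atp6v0d1, which joins ring and stalk, 0.52 (adjusted p = 0.584), and the small subunit Atp6v0e 0.52 (adjusted p = 0.643). The RNP-IPs labelled induced lay above all 3 controls in Atp6v0b and Atp6v0d1 but not in Atp6v0e. Atp6v0a1 and Atp6v0a2, isoforms of the subunit that forms the proton channel, were below log2 5 on all 5 arrays, so these arrays gave no measure of their difference. The accessory proteins had values below 0, with -0.52 for Atp6ap1 (adjusted p = 0.697) and -0.20 for Atp6ap2, the (pro)renin receptor (adjusted p = 0.691). A second probe set of Atp6ap2 was called in the RNP-IPs labelled uninduced over total RNA (11.90 and 12.25 against 10.44, adjusted p = 0.397).

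Npc1, the membrane protein that exports cholesterol from the lysosome, was the gene with the largest fold of the 36. Its signal was 6.82 and 7.28 under the label induced, 3.72 and 4.47 under the label uninduced and 4.09 in total RNA. All 3 controls were below log2 5, so only a lower bound can be given, and with the controls set to log2 5 the RNP-IPs labelled induced were at least 4.14-fold higher. The call held against the 3 controls (fitted log2 fold 2.96, SE 0.29, adjusted p = 0.1), against the RNP-IPs labelled uninduced (adjusted p = 0.187) and against total RNA (adjusted p = 0.183). These 3 comparisons share the RNP-IPs labelled induced and are not independent. Npc1 had 1 probe set, so no second one could be compared. Without RNP-IP 2 labelled induced and RNP-IP 1 labelled uninduced, the 2 arrays low in reference genes, 1 gene of 36 was again called, Npc1, but 1 array then stands against 2 controls and its spread is assumed from theirs.

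Npc2, the soluble protein that hands cholesterol to Npc1, did not go with it. Its signals were 13.05 and 13.23 under the label induced, 13.26 and 13.33 under the label uninduced and 13.32 in total RNA (log2 fold -0.17, SE 0.08, adjusted p = 0.593). Its other probe sets over log2 6 had log2 folds of 0.08 and 0.05, so the sign changed with the probe set. Psap, the precursor of the saposins that help to degrade sphingolipids, was 10.10 and 9.18 under the label induced, 6.98 and 9.11 under the label uninduced and 8.85 in total RNA. The log2 fold of 1.33 (SE 0.81, adjusted p = 0.683) rested on the low RNP-IP 1 labelled uninduced, while the other 2 controls, at 9.11 and 8.85, were close to the 9.18 of RNP-IP 2 labelled induced. Leaving out that array gave 0.66 (adjusted p = 0.688). Lipa, the acid lipase, had 0.29 (adjusted p = 0.848).

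Against the RNP-IPs labelled uninduced alone, 27 of 36 genes were above 0 with a median log2 fold of 0.45, and 16 did not overlap and were higher, where this held for 16.9% of all genes. In the other direction 5 did not overlap, where this held for 18.5%. Of the 28 genes with a mean over log2 6, 13 were higher and 4 lower without overlap, where 22.3% and 33.2% of all such genes were. Called higher were 2 of 36, Npc1 and Gla, where 1.38% of all genes were called, and called lower were 0, where 2.65% were called. At an unadjusted p under 0.05 there were 9 higher and 2 lower (Atp6ap2 and Glb1), 30.6% of the 36 against 14.3% of all genes, but 28.6% against 27.7% over log2 6. Gla, which removes terminal galactose from glycolipids, was 5.69 and 5.63 under the label induced, 3.75 and 3.77 under the label uninduced and 5.26 in total RNA. Both RNP-IPs labelled uninduced were below log2 5, so that the difference is at least 1.58-fold, while the fitted log2 fold was 1.90 (SE 0.05, adjusted p = 0.118). Total RNA lay close to the RNP-IPs labelled induced, and against the 3 controls Gla was not called (1.40, adjusted p = 0.535). The other 2 probe sets of Gla were below log2 5 on every array. The paper's own list of enriched mRNAs does include Gla, as well as Npc1, Atp6v1a and Atp6v1g1.

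**Figure D3:**
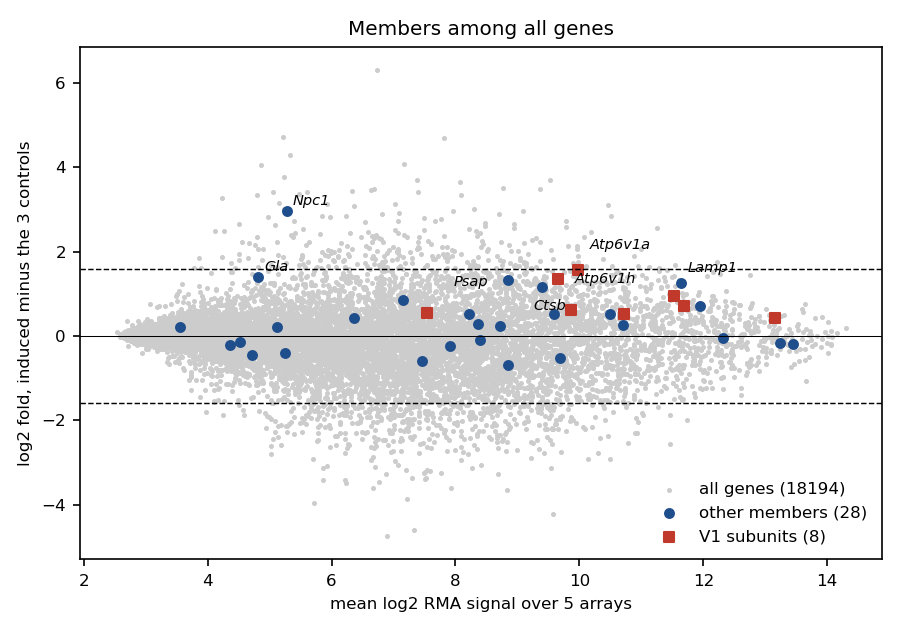
Log2 fold of the RNP-IPs labelled induced over the 3 controls (vertical axis) against the mean log2 RMA signal over the 5 arrays (horizontal axis), 1 point per gene, with grey for all 18194 genes, red squares for the 8 V1 subunits and blue circles for the 28 other genes of pump and lysosome. Dashed lines mark a 3-fold difference in either direction. Npc1 at 2.96 is the only coloured point outside the dashed lines, the V1 squares all lie above 0, and Atp6v1a at 1.56 lies just inside.

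Ctsb, a cysteine peptidase, was 10.20 and 9.98 under the label induced, 8.45 and 8.73 under the label uninduced and 9.59 in total RNA. The RNP-IPs labelled induced were above all controls, with total RNA between the groups of RNP-IPs. The log2 fold was 1.17 (SE 0.40, adjusted p = 0.436) against the 3 controls and 1.50 (SE 0.15, adjusted p = 0.166) against the RNP-IPs labelled uninduced, both under the 3-fold threshold. Further probe sets of Ctsb were of low signal and overlapped with the controls. In one of them total RNA (5.82) lay above both RNP-IPs labelled induced (5.29 and 5.28). In another, RNP-IP 2 labelled induced (4.14) lay below RNP-IP 2 labelled uninduced (4.43) and total RNA (4.59). Lamp1, an abundant glycoprotein of the lysosomal membrane, had the order of the main probe set of Ctsb. It was 12.53 and 12.28 under the label induced, 10.33 and 11.35 under the label uninduced and 11.75 in total RNA. Its log2 fold was 1.26 (SE 0.48, adjusted p = 0.503) against the 3 controls and 1.57 (SE 0.44, adjusted p = 0.395) against the RNP-IPs labelled uninduced.

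The other 2 membrane proteins changed sign with the probe set. Lamp2, the relative of Lamp1 that takes part in autophagy, was 12.10 and 12.50 under the label induced, 12.49 and 11.94 under the label uninduced and 12.59 in total RNA on its main probe set (log2 fold -0.04, adjusted p = 0.973). Its 3 other probe sets gave 0.61, 0.29 and 0.80, none of them called. Scarb2, the receptor that carries glucocerebrosidase to the lysosome, was 8.43 and 8.46 under the label induced, 8.56 and 9.86 under the label uninduced and 8.96 in total RNA (log2 fold -0.68, adjusted p = 0.684). Its second probe set, with 6.76 and 7.06 against 5.04, 6.72 and 6.82, gave 0.72 (adjusted p = 0.735).

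In several peptidases and glycosidases the 2 RNP-IPs of a label differed widely. In 6 genes RNP-IP 1 labelled uninduced and RNP-IP 2 labelled induced were both below the other 3 arrays, namely the accessory subunit Atp6ap1, the peptidases Ctsa, Ctsd and Ctsz, and the glycosidases Gusb and Hexa, where this held for 6.45% of all genes and 10.9% of those over log2 6. In Gusb the difference was small, as its 4 RNP-IPs lay between 4.87 and 5.12 at the edge of the background. RNP-IP 1 labelled uninduced and RNP-IP 2 labelled induced are the 2 arrays low in Gapdh and Rplp0. The difference between the 3′ and 5′ probe sets of Gapdh, a sign of RNA length, was 6.05 and 5.47 in these 2, 3.71 and 4.29 in the other 2 RNP-IPs and 5.40 in total RNA. The part of RNA length or of these 2 arrays in the values was not tested.

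Ctsa, the serine peptidase that protects β-galactosidase and neuraminidase, was 7.77 and 7.55 under the label induced, 4.22 and 7.72 under the label uninduced and 8.51 in total RNA. Ctsd, the aspartic peptidase, was 8.37 and 7.16, then 6.65 and 8.58, and 8.79 in the same order, and Ctsz was 8.79 and 7.90, then 6.68 and 9.71, and 8.92. In all 3 the labels overlapped, with log2 folds against the 3 controls of 0.85, -0.24 and -0.09 and adjusted p of 0.856, 0.936 and 0.991. Ctsl had 0.72 (adjusted p = 0.7) and the tripeptidyl peptidase Tpp1 0.23 (adjusted p = 0.813).

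Gaa, which breaks down glycogen, was highest in total RNA, with 7.20 and 7.01 under the label induced, 7.22 and 7.22 under the label uninduced and 8.64 in total RNA. Against total RNA its log2 difference was -1.54 (SE 0.11, adjusted p = 0.109) for one label and -1.43 (SE 0.11, adjusted p = 0.175) for the other, close to each other and under the 3-fold threshold. A second probe set of Gaa was called lower in the RNP-IPs labelled induced than in total RNA (-1.79, adjusted p = 0.152). Gusb, a glucuronidase, lay at 4.87 to 5.12 in the 4 RNP-IPs and at 6.23 in total RNA. Its second probe set went the other way, with 6.04 and 5.58 under the label induced, 3.40 and 5.02 under the label uninduced and 4.91 in total RNA. Hexa had a log2 fold of 0.26 against the 3 controls (adjusted p = 0.9), and Glb1, with all 4 RNP-IPs below log2 5, and Neu1, with all 5 arrays below it, were at the background.

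**Figure D4:**
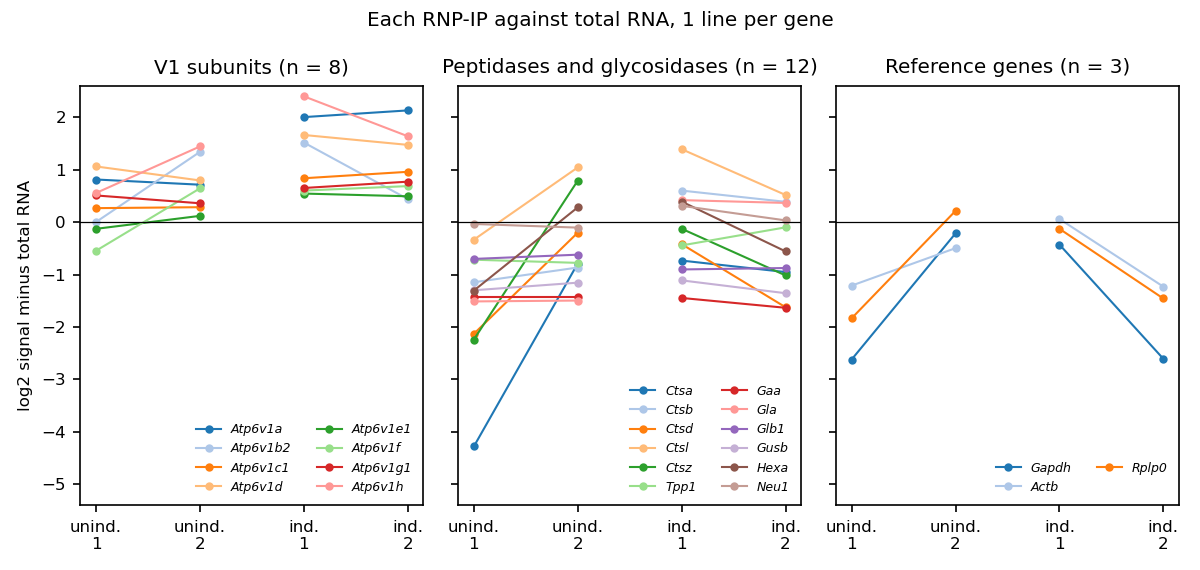
Log2 signal of each RNP-IP minus that of total RNA (vertical axis) for the 8 V1 subunits, the 12 peptidases and glycosidases and 3 reference genes, with the 4 RNP-IPs on the horizontal axis (unind., labelled uninduced; ind., labelled induced) and lines joining the 2 RNP-IPs of a label for 1 gene. V1 subunits lie mostly above 0, peptidases and glycosidases mostly below, and the reference genes are lowest in RNP-IP 1 labelled uninduced and RNP-IP 2 labelled induced, as are Ctsa, Ctsd and Ctsz.

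Against total RNA, the medians of V1 subunits and of enzymes lay on opposite sides of 0, a difference that was not tested. In the RNP-IPs labelled induced 3 of 36 genes were called higher, Atp6v1a, Atp6v1h and Npc1, where 2.03% of all genes were called, and 0 were called lower, where 4.5% were called. At an unadjusted p under 0.05 there were 8 higher, 6 of them V1 subunits, and 4 lower, Gaa, Glb1, Gusb and Atp6v0a2, the last below log2 5 on all arrays. Together they are 33.3% of the 36, against 17.3% of all genes, but over log2 6 the share was 25.0% against 28.7%. The median log2 difference was 0.94 for V1 subunits, -0.42 for peptidases and -0.49 for glycosidases, where genes with a mean over log2 6 had -0.19. In the RNP-IPs labelled uninduced these medians were 0.55, -0.88 and -0.94, with -0.09 for genes over log2 6. Total RNA was the lowest array for 7 of 36 genes, 6 V1 subunits and Tfeb, where this held for 20.0% of all genes, and the highest for 11, of which none was a V1 subunit, where it held for 21.3%.

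The channel and the regulator gave little signal. Mcoln1, the calcium channel of the lysosome, had 5.26 and 5.26 under the label induced, 4.40 and 5.31 under the label uninduced and 5.40 in total RNA (log2 fold 0.22, adjusted p = 0.846). Tfeb was 7.05 and 6.19, then 6.38 and 6.19, and 6.03 in total RNA (0.42, adjusted p = 0.692). The 7 genes with TCACGTGA in the promoter window had log2 folds against the 3 controls from -0.24 to 1.56. Their median was 0.52, with 6 above 0. The 22 measured genes whose window lacked it had a median of 0.22 with 12 above 0. Left out here are Atp6v1b2, Atp6v1c1, Atp6v1g1, Atp6v1h, Atp6v0a2, Ctsb and Npc1, measured genes without a window. The log2 folds of these, in this order, were 0.53, 0.72, 0.42, 1.35, -0.22, 1.17 and 2.96. A link between the string and the fold was not tested.

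The 36 genes had 87 probe sets, of which 48 had a mean over log2 6 and 28 were below log2 5 on every array. Against the 3 controls 3 of the 87 were called higher (1 each of Atp6v1a, Atp6v1g1 and Npc1), where 1.32% of all probe sets of a single gene were called, and 0 were called lower, where 1.98% were called. Of the 14 V1 probe sets over log2 6, 13 had a log2 fold above 0.

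Of 98 further genes of pump and lysosome, listed by function, 89 were measured. Against the 3 controls 2 were called higher (1.32% of all genes were) and 1 lower (2.36% were). Both RNP-IPs labelled induced lay above all 3 controls for 16 of the 89 and below them for 6, where 12.0% and 13.4% of all genes did. The median log2 fold was -0.02, with 42 above 0 and 47 below, but 25 of the 89 were below log2 5 on every array. The 44 with a mean over log2 6 had a median of 0.02, with 22 above 0, where all genes over log2 6 had -0.15, and 9 lay above all 3 controls and 5 below. Of 15 other V-ATPase subunits and assembly factors 7 were below log2 5 on every array. The 6 with a mean over log2 6 ran from -2.46 to 1.30, with 2 above 0 and 4 below. Gnptab, which starts the mannose 6-phosphate tag of lysosomal enzymes, was 7.54 and 8.04 under the label induced, 3.30 and 4.63 under the label uninduced and 6.09 in total RNA (fitted log2 fold 3.12, adjusted p = 0.367). Both RNP-IPs labelled uninduced were below log2 5, and against these alone the difference is at least 6.92-fold. Arsb, a sulfatase, was 8.69 and 8.94, then 6.50 and 5.22, and 7.70 (2.34, adjusted p = 0.445). In both genes total RNA lay between the RNP-IPs of the 2 labels.

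Vma21, an assembly factor of V0, was the gene called lower, with 7.18 and 8.51 under the label induced, 10.51 and 10.23 under the label uninduced and 10.18 in total RNA (-2.46, adjusted p = 0.205). Its other probe set over log2 6 gave -0.19. A dimmer one read 4.86 and 5.29 under the label induced, 5.73 and 7.02 under the label uninduced and 6.37 in total RNA. It gave -1.30 and was not called (adjusted p = 0.441). Against the RNP-IPs labelled uninduced alone 3 of 89 were called higher (1.38% of all genes were), with Manba, a mannosidase, added (fitted log2 fold 1.63, adjusted p = 0.158, and at least 2.27-fold, both RNP-IPs labelled uninduced being below log2 5), and 2 lower (2.65% were), with Dmxl1, a V-ATPase regulator, added (-2.20, adjusted p = 0.404). Against total RNA 2 of the 89 were called higher and 1 lower under the label induced (2.03% and 4.5% of all genes were), and 1 higher and 2 lower under the label uninduced (1.26% and 1.36% were). Lamtor2, a scaffold of mTORC1 signalling on lysosomes, was called higher under both labels, with 8.91 and 8.18 labelled induced and 7.43 and 8.12 labelled uninduced against 5.79 (adjusted p = 0.225 and 0.401). Its second probe set was not called, with log2 differences of 0.20 and -0.08. Gnptab was called higher under the label induced (1.70, adjusted p = 0.491). There Vma21 was called lower, and in the RNP-IPs labelled uninduced Gnptab and the acetyltransferase Hgsnat were called lower. Gnptab was at least 2.13-fold lower, its RNP-IPs being below log2 5, and Hgsnat was 5.20 and 5.83 against 7.21 (-1.69, adjusted p = 0.341).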

How the data were processed

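RNA of 5 samples was amplified by two-cycle labelling and hybridised to Affymetrix GeneChip Mouse 430 2.0 arrays. The authors normalised the signals by RMA (version not given in the sources used here) and deposited log2 values for 45101 probe sets, which were used as deposited. The number of arrays limits the precision, and counts of reads or depth do not apply.

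Gene names came from the array annotation (34958 probe sets with 1 gene, 932 with several, 9211 with none), and a gene was represented by its own probe set of highest mean over the 5 arrays. limma 3.58.1 in R 4.3.3 (lmFit, eBayes) was fitted to all probe sets with Benjamini-Hochberg adjustment. As in the study's methods, 2 RNP-IPs labelled induced were set against 2 labelled uninduced plus total RNA (3 residual degrees of freedom), with calls at 3-fold or more and adjusted p under 0.5. The paper's list of enriched mRNAs includes Npc1, Gnptab and Arsb, which were called here against the 3 controls. It also includes Atp6v1a, Atp6v1g1, Gla and Manba, which were not called here on their probe set of highest mean. Other probe sets of Atp6v1a and Atp6v1g1 were called, and Gla and Manba were called against the RNP-IPs labelled uninduced alone. The calls are therefore not identical. A fit with 3 groups (2 residual degrees of freedom) gave the other 3 comparisons. Bounds used log2 5 for arrays below it. On simulated data with 45101 probe sets the comparison with the 3 controls recovered 129 of 200 probe sets changed 4-fold, 0 with the wrong sign, and called 21 unchanged ones. The simulated noise was independent between probe sets and arrays, and only probe sets with a mean over log2 5 were changed. Deviations shared by many probe sets of an array were left out, so the 21 give no rate of false calls for the real arrays.

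The genes and lists were chosen with earlier results of these data known. Values on every array are given for genes called in any comparison, with a log2 fold of 1 or more in size against the 3 controls, or with probe sets over log2 6 of opposite sign. The others are given by level. Those of Ctsa, Ctsd, Ctsz, Gaa, Mcoln1, Tfeb and of further probe sets were added after their values were seen. Alternatives were other scalings, filters, thresholds, choices of probe set, leaving out arrays and a replicate block. Presence calls and images were not used here.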

Additional observations from a re-analysis of the deposited data

How the results depend on the processing

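Against the 3 controls the 1 gene called higher, Npc1, became 2 with cyclic loess (with Atp6v1a), 2 with the mean of all probe sets of a gene (with Atp6v1a), 3 with the probe set of largest fold (with Atp6v1a and Atp6v1g1), 3 at a fold of at least 2 (with Atp6v1a and Ctsb, where 2.85% of all genes were called) and 0 at an adjusted p under 0.05. Leaving out 1 array at a time, where a lone array is assumed to vary like the others, gave 1 to 2, with Atp6v1a joining without RNP-IP 1 labelled induced and without either RNP-IP labelled uninduced. The 2 genes called higher than in the RNP-IPs labelled uninduced became 4 with the probe set of largest fold, 5 at a fold of at least 2 (3.18% of all genes) and 0 at an adjusted p under 0.05. Leaving out 1 array gave 2 to 6, the 6 without RNP-IP 2 labelled uninduced being Lamp1, Ctsa, Ctsb, Gla, Npc1 and Psap. The 3 called higher than total RNA became 5 with the probe set of largest fold and 0 at an adjusted p under 0.05.

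The 0 called lower than total RNA became 1 (Gaa) with the probe set of largest fold, with the mean of probe sets and without cross-hybridising probe sets, and 3 at a fold of at least 2 (Atp6ap1, Gaa and Gusb, where 8.56% of all genes were called), and 0 to 1 with 1 array left out. For the RNP-IPs labelled uninduced against total RNA, the 0 called higher became 1 (Atp6ap2) with the probe set of largest fold and without cross-hybridising probe sets. The 0 called lower became 4 at a fold of at least 2 (Ctsb, Gaa, Gla and Gusb, where 3.78% were called), and 0 to 3 with 1 array left out. Over all alternatives, 601 values of named genes or medians of the 36 stayed on their side of the threshold or, for medians, within the spread of RNP-IPs, 26 came past the threshold and 9 lost it. The cause of these changes was not tested, and no called value changed sign, while uncalled ones such as Lamp2 and Scarb2 did.

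The RNP-IPs share replicate numbers without a stated pairing, and the deviations of same-numbered RNP-IPs correlated at r = -0.50. The block was fitted to the 4 RNP-IPs without total RNA, so it is set beside the fit against RNP-IPs labelled uninduced, where Gla and Npc1 were called, and 554 probe sets higher and 861 lower. With the replicate number as a block 2 genes were called, again Gla and Npc1, and 286 probe sets higher and 368 lower. With the pairing crossed, a choice made after seeing the data, 3 genes were called (Gla, Npc1 and Psap), and 647 probe sets higher and 968 lower.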
